A study of Mus musculus with 9 samples.

Results

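The 10 genes described here are the 4 Id genes (Id1, Id2, Id3 and Id4), the ligand gene Bmp4, the receptor gene Bmpr1a, the pseudoreceptor gene Bambi and the SMAD genes Smad1, Smad5 and Smad6. They were chosen by name as the inhibitor-of-differentiation family with a BMP ligand, a receptor, the signal transducers and feedback genes, and each was found once among the 38940 genes of the table. Mouse embryonic stem cells were sequenced in 3 groups of 3 RNA-seq libraries. By the labels, double KO cells (Yap ∆/∆ Taz ∆/∆) lack both Hippo pathway effectors, Taz KO cells (Yap f/f Taz ∆/∆) lack Taz but keep floxed Yap alleles, and control cells (Yap f/f Taz f/f) keep floxed alleles of both. The genotype field gives the double KO libraries the Taz KO genotype, so the groups follow the titles and descriptions. The culture was on fibronectin, in N2B27 supplemented with 4 ng/ml Lif, 0.4 µM of the MEK inhibitor PD0325901 and 3 µM of the GSK3 inhibitor CHIR99021, and the protocol names no added BMP. Cre-ERT2 was driven by the ubiquitous CAG promoter from a piggyBac transposon and recombination was induced with 500 nM 4-OHT. The labels do not say whether control cells received 4-OHT, nor whether a group is 1 clone or its replicates are separate cultures, so the spread behind each p-value is that of the libraries and could be technical.

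Bone morphogenetic proteins are secreted ligands that bring together type I and type II receptor kinases. The activated type I receptor phosphorylates SMAD1 and SMAD5, which enter the nucleus with SMAD4 and switch on target genes. The Id genes are the classic targets: ID proteins carry a helix-loop-helix without a DNA-binding region and hold E proteins such as TCF3 in dimers that cannot bind DNA. In serum-free culture of mouse embryonic stem cells, BMP with Lif is known to hold back differentiation through ID proteins. SMAD6 and BAMBI are brakes that BMP signalling itself induces. Transcript levels do not measure signalling, and in bulk samples fewer expressing cells and less RNA per cell cannot be told apart.

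The promoters of 3 Id genes are shown because Id2 fell in both knockout groups while Id3 and Id4 passed the test with all libraries in neither. Each window runs from 250 bases before to 50 bases after a RefSeq transcription start on GRCm38.p6, on the gene's own strand. RefSeq windows matched 8 of the 10 genes and were missing for Id1 and Bambi, so Id1 is not shown. Capitals mark matches on either strand to GGCGCC, a motif bound by SMAD1 and SMAD5, or GGAATG, the core motif of TEAD factors. TGANTCA, the AP-1 motif, was searched as well. The matches do not overlap one another.
Id2 (chr12:25096043-25096342, minus strand): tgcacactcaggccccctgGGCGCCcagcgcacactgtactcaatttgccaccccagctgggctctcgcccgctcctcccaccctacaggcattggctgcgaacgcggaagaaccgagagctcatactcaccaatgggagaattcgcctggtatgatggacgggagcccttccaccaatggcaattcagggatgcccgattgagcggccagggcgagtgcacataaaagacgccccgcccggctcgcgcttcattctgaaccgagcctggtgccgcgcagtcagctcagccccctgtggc
Id3 (chr4:136143572-136143871, plus strand): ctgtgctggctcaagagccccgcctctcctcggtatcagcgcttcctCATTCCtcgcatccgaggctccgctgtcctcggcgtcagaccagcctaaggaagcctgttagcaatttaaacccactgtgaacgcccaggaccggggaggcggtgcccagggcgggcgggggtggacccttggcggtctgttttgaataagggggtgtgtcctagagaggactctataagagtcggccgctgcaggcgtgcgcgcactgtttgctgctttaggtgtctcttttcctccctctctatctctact
Id4 (chr13:48260866-48261165, plus strand): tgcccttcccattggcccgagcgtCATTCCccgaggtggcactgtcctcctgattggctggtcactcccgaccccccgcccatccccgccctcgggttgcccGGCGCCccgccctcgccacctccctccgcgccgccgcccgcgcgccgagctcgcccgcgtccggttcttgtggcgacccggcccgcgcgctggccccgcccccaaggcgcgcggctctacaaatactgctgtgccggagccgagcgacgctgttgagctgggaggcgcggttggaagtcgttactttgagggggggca
Id2 held 1 GGCGCC starting at position -231, Id3 held 1 GGAATG at -203, and Id4 held 1 of each, at -148 and -226. Positions count from the RefSeq start. In the GENCODE M21 annotation Id2 (start 25097140) and Id3 (start 136143497) begin further upstream, so both windows lie inside the gene. Neither Id2, Id3 nor Id4 held TGANTCA in its window. GGCGCC also lay in the window of Bmpr1a (-198) and in windows of some Smad5 starts (24 and -19). The windows of Bmp4, Smad1 and Smad6 held none of these motifs. Of all 32851 windows of this length, 11.9% held GGCGCC, 14.7% GGAATG and 7.81% TGANTCA. Letters in a window are a description and not binding sites.

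Levels are in FPKM, a read count divided by gene length and scaled for depth, which allows levels of different genes to be set side by side. Whole reads could be recovered from the steps of the values, 18.7 M to 23.5 M per library. Yap1 was at 4.25 ± 0.334 FPKM in double KO, 18.3 ± 0.346 in Taz KO and 18.4 ± 0.573 in control (SD, n = 3), and Wwtr1, which encodes TAZ, at 13.9 ± 0.772, 10.8 ± 1.58 and 12.1 ± 0.847. A gene-wide value cannot show the loss of an exon, so the Taz deletion was not checked by Wwtr1. Of the markers listed for embryonic stem cells, 8 of 8 were above 1 FPKM in each library. Their sum was 2290 to 2610 FPKM in double KO, 3840 to 4200 in Taz KO and 4630 to 4970 in control, mostly through Dppa5a (1140 ± 115, 2580 ± 153 and 3260 ± 157 FPKM). Klf4 (123 ± 26.8, 186 ± 21.1 and 202 ± 27.9 FPKM), Nanog (213 ± 9.5, 279 ± 34.6 and 264 ± 3.63) and Sox2 (179 ± 8.51, 226 ± 8.14 and 226 ± 14.2) were also lower in double KO than in control, without overlap. Zfp42 ran the other way (118 ± 14.9, 98.6 ± 7.66 and 72.5 ± 13.3 FPKM). It lies on chromosome 8, whose median log2 fold change was 0.30 in double KO and 0.35 in Taz KO against control. Groups overlapped for Esrrb (135 ± 5.19, 134 ± 16.5 and 130 ± 11.2 FPKM), Pou5f1 and Tfcp2l1. The part of these differences in the results was not tested. Libraries numbered 2 stood apart from those numbered 1 and 3 in each group. A chi-square test of reads gave 14.3 to 44.5 per gene for pairs that include number 2 and 5.04 to 9.11 for the others. Results of the 10 genes and of list genes described singly are therefore given with and without number 2 where it changes a call. Since same-numbered libraries deviated together, those numbered 1 the least, the replicate number was also used as a term of the fit (the replicate block).

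In control cells Bmpr1a had the highest level, 16.5 ± 1.83 FPKM (SD, n = 3). It was followed by Id4 at 8.57 ± 1.10, Id3 at 8.09 ± 2.41, Id2 at 6.89 ± 0.431, Smad5 at 6.24 ± 0.176 and Smad1 at 4.42 ± 0.723. Bambi at 2.65 ± 0.158, Id1 at 2.28 ± 0.884, Smad6 at 1.90 ± 0.251 and Bmp4 at 0.723 ± 0.299 were the lowest. Library values of Id4 and Id3, of Id3 and Id2, of Id2 and Smad5, of Bambi and Id1, and of Id1 and Smad6 overlapped, so the order within those pairs lies inside the spread. Bmpr1a lay above the others in each control library, and Bmp4 below them.

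Differences were tested with limma on log2(FPKM + 0.5) over the 11674 genes with a mean of at least 1 FPKM, and genes with a Benjamini-Hochberg adjusted p under 0.05 are called. Of the 10 genes, 9 entered the test and Bmp4, at a mean of 0.81 FPKM, did not. Id2 entered although its double KO mean was below 1 FPKM, so the 9 are not a neutral sample. In double KO against control, Smad5 rose and Id2 and Bambi fell, 3 of 9 where 25.3% of all tested genes were called. In Taz KO against control Id2 alone was called, 1 of 9 against 1.28% of all tested genes. In double KO against Taz KO Id2 alone was called, 1 of 9 against 13.9%. With the replicate block, double KO against control had 4 of 9 called (52.4% of all tested genes), 2 higher (24.2%) and 2 lower (28.1%). Taz KO against control had 2 of 9 called with the block (11.8%), both lower (4.05%), and double KO against Taz KO 3 of 9 (42.4%), 2 higher (16.8%) and 1 lower (25.6%). Without number 2 the counts were 5, 2 and 2 of 9, where 41.9%, 3.62% and 36.6% of all tested genes were called. The comparisons with control share the control libraries, and both comparisons of double KO share the double KO libraries.

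Id2, the ID gene that is also known as a partner of the retinoblastoma protein, was at 0.758, 0.625 and 0.843 FPKM in double KO replicates 1, 2 and 3. Taz KO had 1.73, 1.54 and 1.63 FPKM, and control had 7.23, 7.03 and 6.41 FPKM. The 3 groups formed 3 separate steps that did not overlap, and within each replicate number the order was the same. Id2 lies on chromosome 12 from 25093799 to 25097140 (GRCm38, minus strand) and overlaps no other gene in the GENCODE M21 annotation. Mean Id2 was 10.8% of control in double KO and 23.7% of control in Taz KO, and double KO was at 45.4% of Taz KO. The log2 fold change was -2.58 in double KO against control (SE 0.11, adjusted p = 9.66e-06) and -1.79 in Taz KO against control (SE 0.11, adjusted p = 0.000568) in limma's test. In double KO against Taz KO, which differ in Yap by the labels, it was -0.78 (SE 0.11, adjusted p = 0.00401). The pseudocount compresses low values: limma-voom on recovered reads gave -3.21, -2.07 and -1.14 for the same comparisons. Recovered reads numbered 19 to 21 in double KO, 38 to 48 in Taz KO and 158 to 219 in control, so that the double KO level is the least precise. Each of these 3 calls held in all 9 fits without 1 library, with a highest adjusted p of 0.024.

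**Figure D1:**
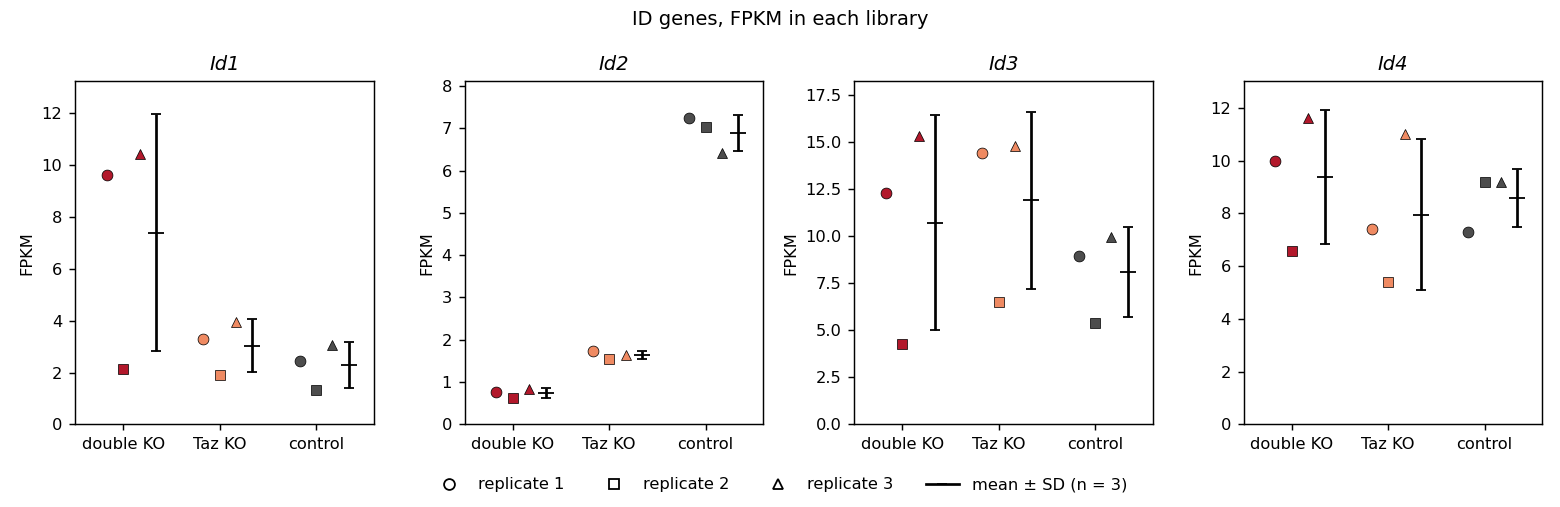
FPKM of Id1, Id2, Id3 and Id4 in each library of double KO, Taz KO and control cells. Symbols give the replicate number and bars the mean ± SD (n = 3). Id2 forms 3 separate steps, whereas the squares of replicate 2 are the lowest Id1 and Id3 values in each group.

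Id1, a BMP target in many cell types, was at 9.60, 2.12 and 10.4 FPKM in double KO replicates 1, 2 and 3. Taz KO had 3.28, 1.91 and 3.94 FPKM and control had 2.46, 1.32 and 3.06 FPKM. Double KO replicates 1 and 3 lay above the other 7 libraries, while double KO replicate 2 lay inside the control range. The mean was 7.38 ± 4.57 FPKM in double KO, 3.04 ± 1.03 in Taz KO and 2.28 ± 0.884 in control (SD, n = 3). Double KO against control gave a log2 fold change of 1.30 (SE 0.53), which limma did not call (adjusted p = 0.1). With the replicate block the SE was 0.24 and the adjusted p was 0.00307, and Id1 was higher in double KO than in the control of the same number in 3 of 3 pairs. The ratios within numbers 1, 2 and 3 were 3.9, 1.61 and 3.40. Without number 2 in any group the log2 fold change was 1.69 (adjusted p = 0.000623), and without double KO replicate 2 alone it was 1.97 (adjusted p = 0.00472). Of the 9 fits without 1 library, the last was the only one to call Id1. The others gave 0.94 to 1.51, with a highest adjusted p of 0.267, in the fit that left out double KO 3 (0.94). For double KO against Taz KO the log2 fold change was 0.95 (adjusted p = 0.263) and an adjusted p of 0.0165 with the block. Without number 2 it was 1.36 (adjusted p = 0.00156), and without double KO replicate 2 alone 1.61 (adjusted p = 0.0172), the 1 call in 9 fits without 1 library (0.58 to 1.61, highest adjusted p = 0.537). For Taz KO against control the log2 fold change was 0.36 (95% interval -0.84 to 1.55, adjusted p = 0.921, and 0.401 with the block). Id1 lies on chromosome 2 from 152736251 to 152737410.

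Id3, which like Id1 is a common target of BMP signalling, was at 12.3, 4.29 and 15.3 FPKM in double KO replicates 1, 2 and 3. Taz KO had 14.4, 6.51 and 14.8 FPKM and control had 8.97, 5.37 and 9.95 FPKM. The groups overlapped, and replicate 2 was the lowest of its group each time. Log2 fold changes were 0.25 in double KO against control (adjusted p = 0.73), 0.49 in Taz KO against control (0.832) and -0.24 in double KO against Taz KO (0.77), and limma with the block called none of them (0.199, 0.0778 and 0.233). Without number 2, which leaves 6 libraries over the 3 groups, Id3 was called higher in double KO than in control (0.52, adjusted p = 0.0118). In that comparison 19.4% of all tested genes were called higher. It was also called higher in Taz KO than in control (0.60, adjusted p = 0.0444), where 2.42% of all tested genes were called higher. Id4, which is best known from neural progenitors, was at 9.99, 6.59 and 11.6 FPKM in double KO, 7.42, 5.39 and 11 in Taz KO and 7.30, 9.21 and 9.18 in control. Its groups overlapped in each comparison, with log2 fold changes between -0.15 and 0.25 and adjusted p-values of 0.564 to 0.938. Id4, on chromosome 13, overlaps genes of the opposite strand, A330033J07Rik at 0.0462 to 0.11 FPKM and Gm49291, which had no value.

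As a pool, Id1 to Id4 summed to 28.2 ± 12.9 FPKM in double KO, 24.5 ± 8.28 in Taz KO and 25.8 ± 2.83 in control (SD, n = 3). The mean sums lay within the spread of the knockout groups, while the makeup differed in a way not tested. Id2 made up 3.04% ± 1.34 of the pool in double KO, 7.22% ± 2.52 in Taz KO and 27% ± 4.20 in control. Id1 made up 24.1% ± 7.43, 12.4% ± 0.182 and 8.65% ± 2.57. Id2 had the smallest share in each of the 6 knockout libraries, and Id1 in each of the 3 control libraries. Id3 and Id4 together held the largest part in each group, 36.5% ± 4.49 and 36.4% ± 10.3 in double KO, 47.7% ± 5.72 and 32.6% ± 4.35 in Taz KO, and 30.9% ± 6.51 and 33.5% ± 6.14 in control.

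**Figure D2:**
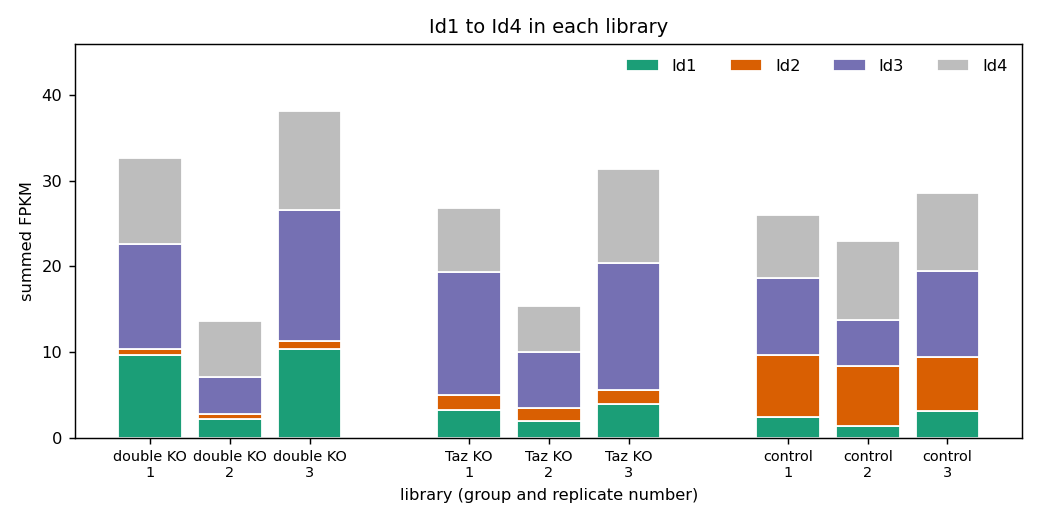
Summed FPKM of the 4 Id genes in each library, by group and replicate number, with each gene as a coloured segment. The Id2 segment narrows to a sliver in double KO, and replicate 2 of double KO and Taz KO, at 13.6 and 15.4 FPKM, has the smallest pools.

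Bmp4, a ligand used in culture both to maintain and to differentiate these cells, had the lowest mean of the 10 genes in each group, although not the lowest value in each library. It was at 1.24, 0.0939 and 0.527 FPKM in double KO replicates 1, 2 and 3, at 1.56, 0.43 and 1.27 in Taz KO and at 0.999, 0.406 and 0.764 in control. The groups overlapped, and replicate 2 was again the lowest of each group. These values rest on 5 to 60 reads in double KO, 22 to 76 in Taz KO and 20 to 53 in control. Without a filter on low values the adjusted p was 0.8 in double KO against control, 0.929 in Taz KO against control and 0.55 in double KO against Taz KO. Bmpr1a, the type I receptor that binds BMP4, was at 19.3, 16.3 and 19.9 FPKM in double KO, 19.9, 16.4 and 19.2 in Taz KO and 15.5, 15.4 and 18.6 in control. Its log2 fold change was 0.16 in both knockout groups against control, with 95% intervals of -0.10 to 0.42 and adjusted p-values of 0.325 and 0.698. Bmp4 and Bmpr1a lie on chromosome 14, where the median log2 fold change of 386 tested genes was 0.11 in double KO and 0.10 in Taz KO against control. Relative to those medians Bmpr1a was at 0.06 in double KO and in Taz KO against control. Bmp4 was at -0.34 and 0.23, where it was at -0.23 and 0.33 without that correction. Bmp4 overlaps genes of the opposite strand, Gm15217 at 0 to 0.0505 FPKM and Gm15222 at 0 to 0.316 FPKM. Bmpr1a overlaps Gm17110 of the opposite strand, at 0 to 0.307 FPKM. The part of these overlaps in the values was not tested.

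Bambi, a truncated receptor without a kinase domain that blocks BMP and TGF-beta receptors, was at 1.69, 1.53 and 1.65 FPKM in double KO. Taz KO had 2.05, 1.89 and 2.02 FPKM and control had 2.82, 2.6 and 2.51 FPKM. The groups again formed 3 steps without overlap, with means at 61.4% of control in double KO and 75.1% of control in Taz KO. In double KO against control it fell by 0.57 on the log2 scale (SE 0.10, adjusted p = 0.00405), in 3 of 3 numbers, and the call held in all 9 fits without 1 library (highest adjusted p = 0.0265). For Taz KO against control the log2 fold change was -0.34 (adjusted p = 0.152, and 0.0388 with the block). For double KO against Taz KO it was -0.23 (adjusted p = 0.15, and 0.0601 with the block), with the same -0.22 to -0.23 in each of the 3 numbers. Groups without overlap were found for 45.6% of all tested genes in double KO against control (23.8% lower), 18.7% in Taz KO against control (7.84% lower) and 30.6% in double KO against Taz KO. Bambi lies on chromosome 18 from 3507923 to 3516404.

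Smad5, one of the SMADs phosphorylated by BMP receptors, was at 7.19, 7.78 and 7.88 FPKM in double KO. Taz KO had 6.04, 6.59 and 6.56 FPKM and control had 6.17, 6.44 and 6.11 FPKM. The double KO values lay above the other 6, by a small margin. The rise over control was 0.27 on the log2 scale (SE 0.07, adjusted p = 0.0251), and double KO against Taz KO gave 0.23 (adjusted p = 0.0591, and 0.0114 with the block). The call against control was lost without double KO 2, double KO 3, control 1 or control 3, with adjusted p-values of 0.0544, 0.0819, 0.0891 and 0.0769. Taz KO against control gave 0.03 (95% interval -0.13 to 0.19, adjusted p = 0.952).

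Smad1, the other BMP-activated SMAD of the set, was at 4.44, 4.73 and 5.0 FPKM in double KO, 5.18, 5.02 and 6.17 in Taz KO and 4.35, 3.73 and 5.17 in control. Control values overlapped those of both knockout groups. The double KO values lay below those of Taz KO (log2 fold change -0.19, adjusted p = 0.339, and 0.0902 with the block). Groups lay apart in that comparison for 30.6% of all tested genes, 16.5% lower. Log2 fold changes were 0.10 in double KO against control (adjusted p = 0.596) and 0.28 in Taz KO against control (adjusted p = 0.378, and 0.0555 with the block). Smad1 lies on chromosome 8, where the median of 635 tested genes was 0.30 in double KO and 0.35 in Taz KO against control, and 36.5% and 8.03% of them were called higher. Relative to that median Smad1 was at -0.21 and -0.07. Smad6, the inhibitory SMAD that BMP signalling induces, was at 1.47, 1.26 and 1.65 FPKM in double KO, 1.39, 1.44 and 1.43 in Taz KO and 1.91, 2.14 and 1.64 in control. The Taz KO values lay below control and the double KO values overlapped it. Log2 fold changes were -0.29 in double KO against control (adjusted p = 0.133) and -0.32 in Taz KO against control (0.331), and none of the fits without 1 library called either.

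**Figure D3:**
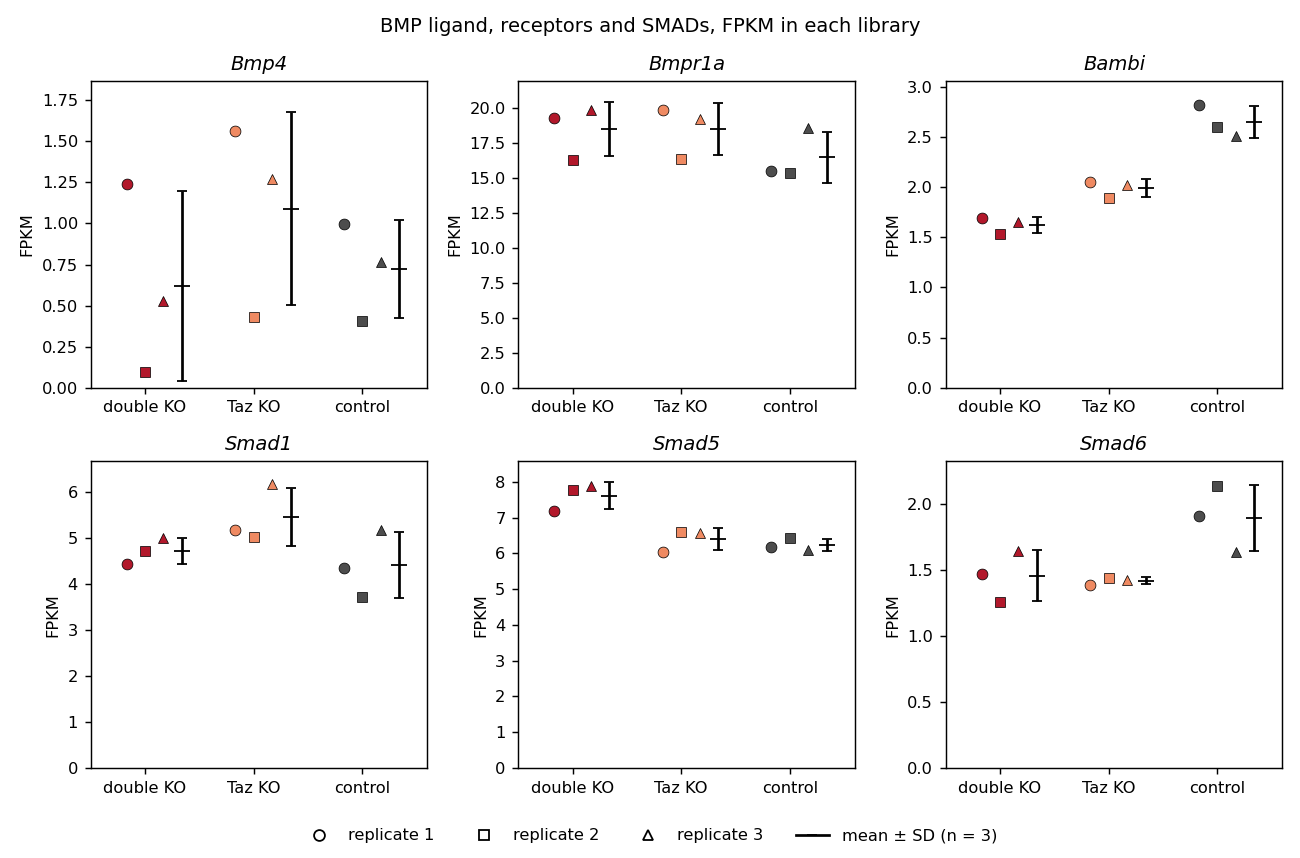
FPKM of Bmp4, Bmpr1a, Bambi, Smad1, Smad5 and Smad6 in each library of double KO, Taz KO and control cells, with symbols for the replicate number and bars for the mean ± SD (n = 3). Bambi steps down over the 3 groups, Smad5 is highest in double KO, and Bmp4 is lowest in replicate 2 of each group.

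**Figure D4:**
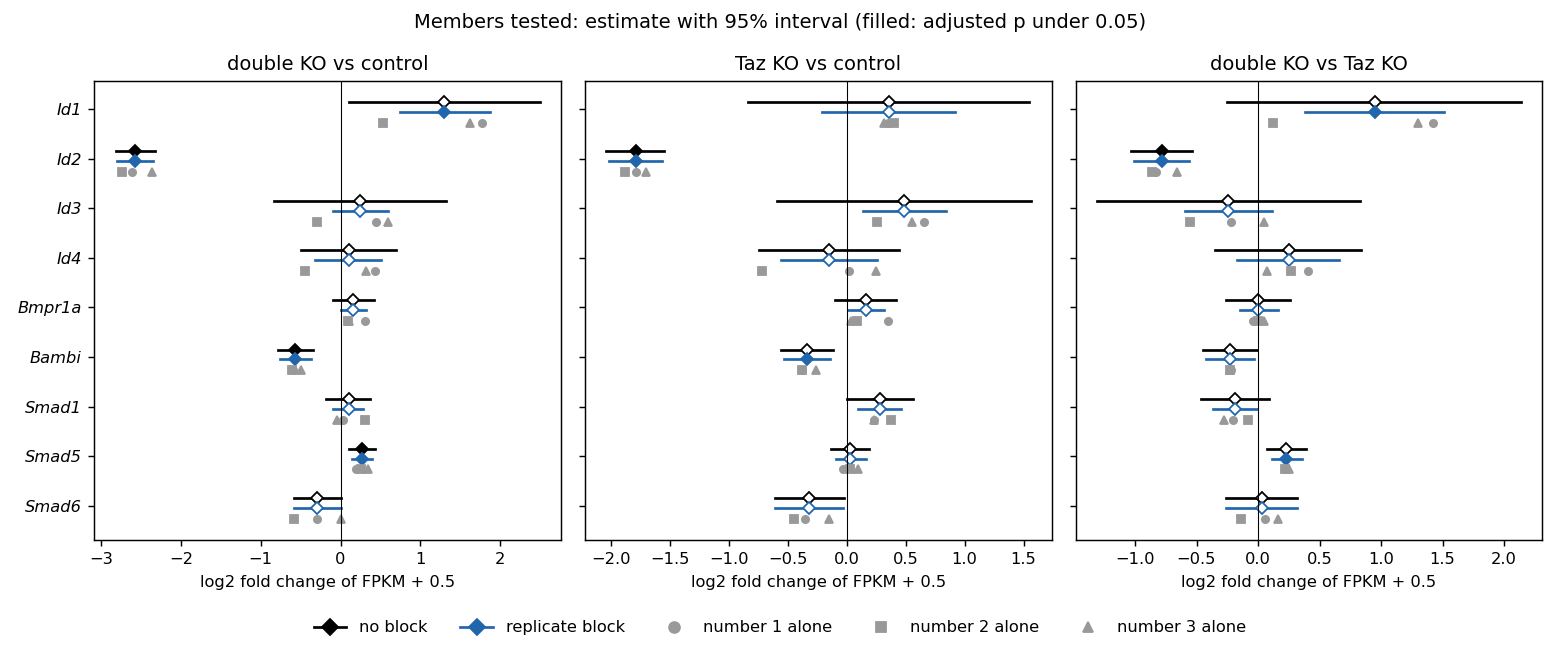
Log2 fold changes of the 9 genes tested, with 95% intervals without (black) and with (blue) the replicate block, for each comparison. Filled diamonds have an adjusted p under 0.05, and grey symbols give the difference within each replicate number. Id2 lies far from 0 in each panel, and the Id1 interval narrows with the block.

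Several of the 10 genes differed by replicate number. In the fit with the block, the libraries numbered 2 were lower than those numbered 1 and 3 for Id3 by a log2 difference of -1.15 (SE 0.13, adjusted p = 0.000903), for Id1 of -1.20 (SE 0.21, adjusted p = 0.00314) and for Bmpr1a of -0.21 (adjusted p = 0.0171). This contrast was added after the values were seen, and it called 3 of 9 genes, all lower, where 49.0% of all tested genes were called, 30.4% lower and 18.6% higher. Replicate 2 was the lowest in each of the 3 groups for Id1, Id3, Bmp4 and Bmpr1a, 4 of 10, and for 31.8% of all tested genes. Id2 (-0.09, adjusted p = 0.422), Bambi (-0.07, 0.459), Smad5 (0.06, 0.355) and Smad6 (0.01, 0.971) were not called. The Id1 level of number 2 was 0.212 times the mean of numbers 1 and 3 in double KO, 0.530 times in Taz KO and 0.479 times in control.

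Markers of other cell types moved with the number as well. The summed level of 5 mesoderm and primitive streak markers in replicates 1, 2 and 3 was 9.21, 2.08 and 12.4 FPKM in double KO, 6.18, 1.93 and 7.75 in Taz KO and 6.13, 3.93 and 5.0 in control. Most of it was T, the gene of brachyury, itself a BMP-responsive gene of the primitive streak, while the other 4 were below 1 FPKM in each library. The 4 neuroectoderm markers, mostly the tubulin gene Tubb3, summed to 36.5, 12.3 and 37.8 FPKM in double KO, 25.8, 13 and 34.3 in Taz KO and 20.1, 13.9 and 28.4 in control. The other 3 were low. Sox1 was at 0.202 ± 0.0223, 0.582 ± 0.238 and 0.982 ± 0.296 FPKM and Neurod1 at 0.348 ± 0.105, 0.184 ± 0.0363 and 0.846 ± 0.388 FPKM in double KO, Taz KO and control (SD, n = 3), and both were above 1 FPKM in control replicate 2 alone. The 5 fibroblast markers, mostly Thy1, were higher in number 2, at 5.97, 10.9 and 3.17 FPKM in double KO, 3.62, 5.89 and 1.77 in Taz KO and 3.79, 4.12 and 2.15 in control, and 2 of the 5 reached 1 FPKM in a library, with the collagen genes Col1a2 and Col3a1 at or near 0. The 5 primitive endoderm markers, mostly Gata4, were also highest in number 2, at 2.28, 3.73 and 1.98 FPKM in double KO, 1.93, 3.12 and 1.36 in Taz KO and 1.90, 2.81 and 2.03 in control. The 5 trophectoderm markers, mostly Eomes, summed to 8.85 to 12.1, 8.69 to 11.4 and 8.46 to 11.4 FPKM in double KO, Taz KO and control. The part of these cells or genes in the Id1, Id3 and Bmp4 values was not tested.

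The wider BMP pathway was read from a list of 73 names, of which 72 were in the table and 35 entered the test. In double KO against control 6 rose and 3 fell, beside 12.4% and 12.9% of all tested genes, and the median log2 fold change was 0.11 against -0.02 for all genes tested. In Taz KO against control 1 fell and none rose by limma's test (0.565% and 0.72% of all tested genes), with a median of -0.03. In double KO against Taz KO 5 rose and 2 fell (6.42% and 7.45%), with a median of 0.01. With the replicate block the list gave 8 rises and 7 falls (24.2% and 28.1% of all tested genes), 2 falls (4.05%), and 8 rises and 5 falls (16.8% and 25.6%) in these comparisons. Without number 2 it gave 7 rises and 6 falls (19.4% and 22.5%), 2 falls (1.2%), and 7 rises and 6 falls (14.5% and 22.1%). With no filter on low values, double KO against control had 4 rises and 5 falls. Over all genes, rises and falls were also nearly equal in number in that fit, so no reversal is read from these counts. The 9 calls of double KO against control were 5 without double KO 1, 4 without control 1, 5 without control 2 and 4 without control 3. The 7 calls of double KO against Taz KO were 3 without double KO 1, 2 without double KO 3, 1 without Taz KO 1, 1 without Taz KO 3 and 4 without control 1, and the 1 call of Taz KO against control became 2 without double KO 2. Calls over all genes moved the same way in each of these fits. They fell from 2948 to 1505 in double KO against control without control 1. In double KO against Taz KO they fell from 1620 to 482 without Taz KO 1. In Taz KO against control they rose from 150 to 230 without double KO 2.

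Among ligands Bmp7 alone of 12 entered the test, at 6.91 ± 0.316 FPKM in double KO, 5.91 ± 1.88 in Taz KO and 6.28 ± 1.20 in control (SD, n = 3), and it was not called (adjusted p = 0.625 in double KO against control). Without number 2, double KO against Taz KO was called for Bmp7 (0.44, adjusted p = 0.01, against 0.425 with all libraries). Bmp7 was therefore the ligand of the list with the highest FPKM, above Bmp4 in each group. Of 7 tested receptors and co-receptors, 2 rose in double KO against control, beside 12.4% of all tested genes. Both are repulsive guidance molecules that act as BMP co-receptors. Rgma was at 5.51, 7.02 and 5.74 FPKM in double KO, against 2.61, 2.51 and 2.64 in control (log2 fold change 1.09, adjusted p = 0.000535). Taz KO had 2.70, 3.23 and 3.48 FPKM, and the rise of double KO over Taz KO was 0.86 (adjusted p = 0.0037). Rgmb rose less, by 0.33 (adjusted p = 0.0224), and its call was lost without double KO 2, double KO 3, control 1 or control 3 (adjusted p = 0.0555, 0.0604, 0.08 and 0.07).

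Of 5 tested secreted inhibitors 2 fell in double KO against control, beside 12.9% of all tested genes. Fstl1, a follistatin-like glycoprotein that antagonises BMP4 in the lung, was at 10.6, 12.7 and 11.3 FPKM in double KO, 14.1, 14 and 14.6 in Taz KO and 26.5, 27.2 and 25.1 in control. It was also the one list gene called in Taz KO against control, with log2 fold changes of -1.15 (adjusted p = 7.67e-05) and -0.86 (adjusted p = 0.00393) for double KO and Taz KO against control. Like Id2 and Bambi it had 3 groups without overlap. Fst, follistatin, which traps activins and some BMPs, was at 5.74, 1.57 and 8.25 FPKM in double KO, 4.27, 3.22 and 6.77 in Taz KO and 13, 15.1 and 14.6 in control. Its fall of 1.60 on the log2 scale in double KO (adjusted p = 0.0365) lost its call in 5 of 9 leave-one-out fits: without double KO 1 (adjusted p = 0.0559), Taz KO 1 (0.0554), control 1 (0.0909), control 2 (0.0875) or control 3 (0.0929). Without double KO 2 the Fst difference was -0.99 and without number 2 -0.95 (adjusted p = 0.02). Taz KO against control gave -1.54 (adjusted p = 0.175, and 0.0266 with the block), and -1.28 without number 2 (adjusted p = 0.0451). Of the classic antagonists, Nog and Grem1 were below the level tested, at 0.0311 ± 0.0367 and 0.0245 ± 0.0215 FPKM in double KO and 0.0324 ± 0.0355 and 0.0471 ± 0.0351 in control. Chrd was tested, at 1.09 ± 0.253 FPKM in double KO, 1.15 ± 0.183 in Taz KO and 1.21 ± 0.163 in control. Limma did not call it (adjusted p = 0.667 in double KO against control).

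Among 14 tested transducers and brakes, the SMAD phosphatase gene Ctdsp2 rose by 0.35 (adjusted p = 0.0093) and Tob1, a repressor of BMP-SMAD transcription, by 0.35 (adjusted p = 0.0466) in double KO against control. The Ctdsp2 call held in all 9 fits without 1 library. That of Tob1 held in 1 of them, the one without Taz KO 2 (adjusted p = 0.0183), with a highest adjusted p of 0.143 without double KO 1. Smad7, the other inhibitory SMAD gene, was at 11.9 ± 0.181 FPKM in double KO, 12.4 ± 0.480 in Taz KO and 13.5 ± 1.55 in control, above Smad6 in each group. Among 5 tested targets, Gata2 was at 15.8, 28.6 and 17.7 FPKM in double KO, 4.20, 14 and 6.32 in Taz KO and 3.83, 6.31 and 5.59 in control. The rise of Gata2 over control was 1.86 (adjusted p = 0.0102), on chromosome 6, whose median was 0.19. Dusp9, an ERK phosphatase that BMP signalling induces in mouse embryonic stem cells, fell to 2.58, 3.97 and 1.57 FPKM in double KO, against 4.91, 6.25 and 5.07 in control (log2 fold change -0.95, adjusted p = 0.0214). That call was lost without double KO 1, control 1, control 2 or control 3, with adjusted p-values of 0.055, 0.0552, 0.0661 and 0.0521. The germ cell regulator gene Prdm1 rose by 0.33 (adjusted p = 0.0432), a call that held in 3 of 9 fits without 1 library. It was lost without any one double KO or control library, at a highest adjusted p of 0.153 without control 1, and without number 2 in any group (0.0765). Of the E proteins that ID proteins bind, Tcf3, Tcf4 and Tcf12, limma called 0 of 3 in each comparison. Over all tested genes 25.3% were called in double KO against control, 1.28% in Taz KO against control and 13.9% in double KO against Taz KO. With the block 1 was called, Tcf12, higher in double KO than in Taz KO, beside 16.8% of all tested genes.

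**Figure D5:**
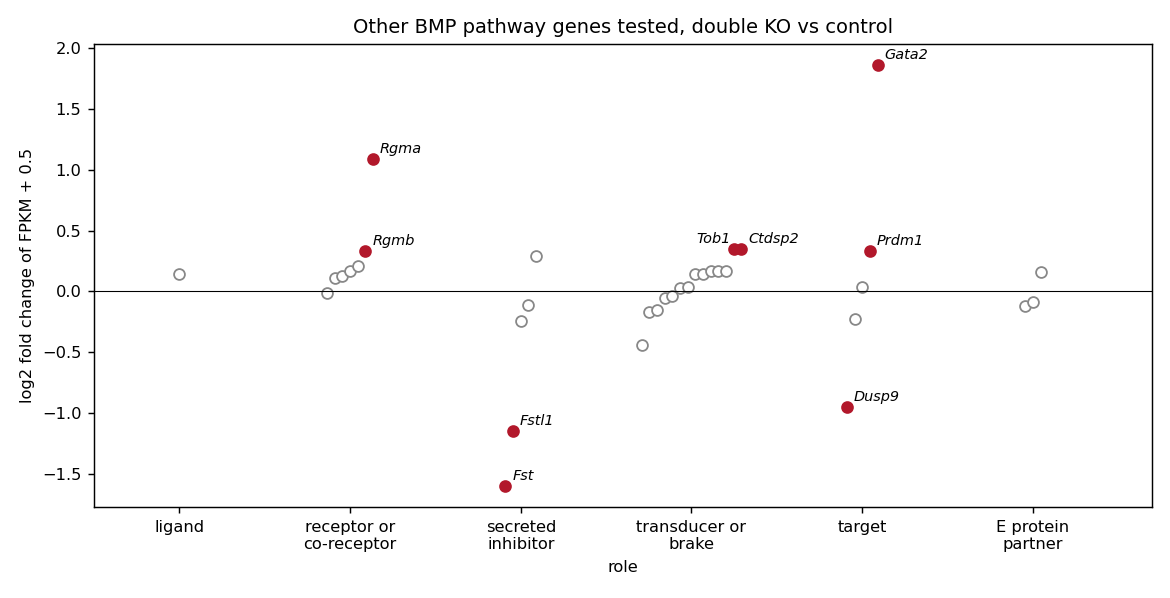
Log2 fold changes (FPKM + 0.5) in double KO against control of the 35 tested genes of the wider BMP list, by role. Filled points have an adjusted p under 0.05. Gata2 and Rgma lie highest and Fst and Fstl1 lowest, and most points of the other roles lie near 0.

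The genes closest to Id2 in pattern were Gm13230, Cyr61 and Mep1b, with root mean square differences of 0.311, 0.379 and 0.416 on the log2 scale over the 9 libraries, each gene taken relative to its control mean. Gm13230 was at 2.15 ± 0.22 FPKM in double KO, 3.29 ± 0.675 in Taz KO and 11.9 ± 2.09 in control (SD, n = 3). Mep1b was at 0.506 ± 0.291, 0.935 ± 0.138 and 3.61 ± 0.96 FPKM. Cyr61, a secreted matricellular protein and a standard YAP/TAZ target, was at 0.344 ± 0.0848, 1.19 ± 0.290 and 3.52 ± 0.215 FPKM. It rests on 12 to 17 reads in double KO. Like Id2, Cyr61 and Mep1b entered the test although their double KO means were below 1 FPKM. Closest to Id1 were Shf, Lgals7 and Gm11768 (0.331, 0.344 and 0.35), with Shf at 14.4, 6.61 and 14.8 FPKM in double KO, 7.43, 3.43 and 8.19 in Taz KO and 6.95, 3.27 and 5.54 in control. Closest to Id3 were Krt42, Wnt5b and St8sia6 (0.173, 0.207 and 0.227).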

How the data were processed

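RNA was poly(A)-selected and libraries were made from 1 µg of RNA (integrity number above 7) with a directional kit and sequenced for 75 cycles on a NextSeq 500, per the labels' protocols. The FPKM values per gene and library were made and deposited by the authors. Tools named in the submitters' processing notes, with no role, are HTSeq 0.6.1, TopHat2 2.1.1 and DESeq2, and the build named is mm10. The annotation release, strand setting and filters are not given in these sources, so reads of overlapping or antisense genes may be shared. Values were whole multiples of 1 read's worth within a tolerance of 0.001 for 24619 of 24621 genes above 0. Between libraries the worth of 1 read matched size factors by median of ratios to within 0.00828%.

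Log2(FPKM + 0.5) values of the 11674 genes with a mean of at least 1 FPKM were fitted with limma 3.58.1 in R 4.3.3, with group means over all 9 libraries (6 residual degrees of freedom) and a variance trend. Tests were two-sided with Benjamini-Hochberg adjustment over all genes tested. The fit was tested on simulated data. Intervals are 95% intervals of limma. Positions come from GENCODE M21 (GRCm38) and promoter sequences from RefSeq.

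Replicate numbers were taken to pair libraries: around the group means, the 9 pairs with 1 number had correlations of 0.192 to 0.711 and the 18 others of -0.688 to 0.394. Deviations cancel within a group, so the correlations of same and other numbers depend on each other. Same-number correlations were 0.603 to 0.711 for number 2, 0.57 to 0.63 for number 3 and 0.192 to 0.423 for number 1. Double KO 1 correlated more with control 3 (0.274) than with control 1 (0.192). What a number marks is not in the labels, so this pairing is read from the values.

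Genes named beside the 10 were those of the BMP list called in double KO or Taz KO against control, at most 4 a role, and the 3 genes nearest to Id1, Id2 and Id3. Bmp7, Nog, Grem1, Chrd, Smad7 and the E proteins were named after their values were seen. The members and lists were chosen with earlier results of these data known.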

Additional observations from a re-analysis of the deposited data

How the results depend on the processing

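Direction and side of the threshold held for the 3 Id2 comparisons and for Bambi in double KO against control under each alternative run: pseudocounts of 0.1 and 1, no filter on low values, quantile normalization, scaling to library totals, limma-voom on recovered reads, the replicate block, each library left out, and number 2 left out (added after the data were seen). The calls of Id1, Id3, Smad5, Rgmb, Fst, Tob1, Dusp9 and Prdm1 depended on the libraries used, as given above, and the cause was not tested. In double KO against Taz KO, fits without 1 library called Gata2 and Tob1 in 1 of 9, Fstl1 in 2, and Rgmb, Ctdsp2 and Dusp9 in 6. Highest adjusted p-values were 0.154 for Gata2, 0.167 for Tob1 and 0.131 for Fstl1. Scaling to library totals lost Fstl1 (0.15) and Gata2 (0.05) there, and quantile normalization lost Fstl1 (0.108). Quantile normalization also lost Prdm1 in double KO against control (0.0644). With no filter on low values, where more genes are tested, double KO against control was no longer called for Rgmb (adjusted p = 0.0581), Fst (0.0791), Tob1 (0.0762) and Prdm1 (0.0838), nor double KO against Taz KO for Fstl1 (0.056), Tob1 (0.0775) and Gata2 (0.0994). The replicate block, that is the pairing by number, changed the number of the 10 genes called in Taz KO against control to 2 and in double KO against Taz KO to 3, and the BMP list to 15, 2 and 13 calls in double KO against control, Taz KO against control and double KO against Taz KO. Over all genes the same fit called 6112, 1381 and 4947, where the fit without the block called 2948, 150 and 1620. Without number 2 the 3 comparisons gave 4889, 423 and 4277 genes, 5, 2 and 2 of the 10 genes, and the BMP list 2 calls in Taz KO against control and 13 in double KO against Taz KO. Without a filter on low values the BMP list had 2 calls in Taz KO against control, beside 146 over all genes. Leaving out 1 library gave 1505 to 3568, 11 to 230 and 482 to 2648 genes, 2 to 3, 1 to 1 and 1 to 2 of the 10 genes, and 4 to 10, 1 to 2 and 1 to 8 genes of the BMP list. The lowest counts over all genes came without control 1, control 1 and Taz KO 1, and the highest without Taz KO 2, double KO 2 and Taz KO 2. Depth limits Id2 in double KO and Bmp4, which rest on few reads. Smad1 taken relative to the median of its chromosome was at -0.21 in double KO and -0.07 in Taz KO against control.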
